A study of Mus musculus with 8 samples.

Results

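The interaction of coating and medium is the difference between the effect of a laminin-511 coating in 2i medium and its effect in Std medium. It was calculated per gene as (LN511 minus gelatin in 2i) minus (LN511 minus gelatin in Std), on the scale of log2(FPKM + 1), and needs all 8 of the 8 libraries of the series. FPKM is the number of fragments mapped to a transcript, scaled to its length and to all mapped fragments of the library. A negative interaction means that LN511 raised a gene more, or lowered it less, in Std than in 2i, and a positive one the opposite. The cells were Bruce 4, a male mouse embryonic stem cell line of the C57BL/6J strain, wild type in every group. The 4 groups were cells on gelatin in Std, cells on LN511 in Std, cells on gelatin in 2i and cells on LN511 in 2i, each kept in its condition for 2 weeks, with 2 libraries per group. All libraries came from this 1 line, and the submitters' design text calls the pairs biological replicates without naming separate derivations, so p-values measure the spread between these libraries. The composition of the Std medium is not given in the labels. The sample titles abbreviate the coating as LM511 and the culture conditions as LN511.

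Laminin-511 is a basement membrane protein that embryonic stem cells bind mainly through the integrin α6β1, whereas gelatin is denatured collagen to which cells attach largely through proteins adsorbed onto it. Integrin engagement reorganises actin at focal adhesions and acts on mechanosensitive transcription factors such as YAP with TEAD, and SRF. 2i medium is named for its pair of inhibitors, which block the kinases MEK and GSK3 and hold mouse embryonic stem cells in the naive ground state of pluripotency. MEK also lies downstream of integrins. The comparison asks whether the response to the coating depends on the medium.

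Markers of embryonic stem cells were present in every library, with Pou5f1 between 949 and 1245 FPKM and Sox2 between 120.0 and 173.7 FPKM. Estimated relative depths of the libraries lay within 1.19-fold of each other, and the files give no read counts. Pearson's r across the genes left by the filter on low values ranged from 0.919 to 0.93 within groups, and from 0.865 to 0.917 for pairs of libraries from 2 groups. Zeros in these files can be failed estimates, and genes with a 0 against values of at least 5 FPKM were left out of the fit. Genes with a 0 against lower values stayed in, Rbm12b1, Ddias and Cdh24 among them. Those left out were 836 genes whose replicates in a group stood at 0 and at no less than 5 FPKM. A further 130 genes left out were listed at 0 throughout a group although a different group averaged no less than 5 FPKM. The fit held the remaining 10278 genes.

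More genes changed with the coating in Std than in 2i, and the difference between the media passed the test for few of them. In Std, 216 genes changed with the coating (2.1% of those tested; limma, adjusted p under 0.05), 158 higher (1.54%) and 58 lower (0.564%) on LN511. In 2i, 2 genes changed (0.0195%), Ccn1 and Prdx6, both higher on LN511; 0 were lower by limma. At an unadjusted p under 0.05, 6.51% of genes were higher and 559 (5.44%) lower on LN511 in 2i, against 9.78% and 6.07% in Std. The interaction itself passed for 19 genes (0.185%), 14 negative (0.136%) and 5 positive (0.0486%), while 1251 genes (12.2%) had an unadjusted p under 0.05. All 19 were among the 216 genes that changed in Std. For the other 197, the coating passed in Std, but the difference between the media did not, so a response in Std alone was not shown for them.

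Of the 19 interaction genes, 18 changed with the coating in Std and did not pass in 2i, 13 of them higher and 5 lower on LN511. Not passing in 2i does not show that the coating had no effect there. The estimate in 2i was under 0.5 in size for 9 of the 18 and larger for the rest. Only Ccn1 rose in both media. Limma placed 0 of the 19 in the class changed in 2i alone and 0 in the class with a change in both media of opposite sign. At an unadjusted interaction p under 0.05, 250 genes (2.43%) had a coating difference of at least 0.5 in size in 2i alone, 471 (4.58%) in Std alone, 232 (2.26%) in both with opposite signs, 22 (0.214%) in both with the same sign and 276 (2.69%) in neither. For 15 of the 19 genes the estimates in the 2 media had opposite signs, and for 13 of these the unadjusted 95% interval in 2i excluded 0, but none of the 15 passed the adjusted test in 2i. For all 19, the 4 replicate-wise coating differences in one medium lay outside those in the other, which held for 28.6% of all tested genes. These calls depended on every library. Without one of the gelatin Std libraries, or without replicate 1 of LN511 in Std, 0 genes passed. Without replicate 2 of LN511 in Std 2 genes passed, 0 of them among the 19, and without either gelatin 2i library 2 genes passed, 1 of them among the 19. Without LN511 2i replicate 1 or 2, 6 or 11 genes passed, with 4 of the 19 in each case. In these 8 fits and the other settings tried, each of the 19 kept its direction wherever it was fitted. With 1 library left out, this follows from the lack of overlap given above and is no further support. The other settings use the same libraries.

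**Figure D1:**
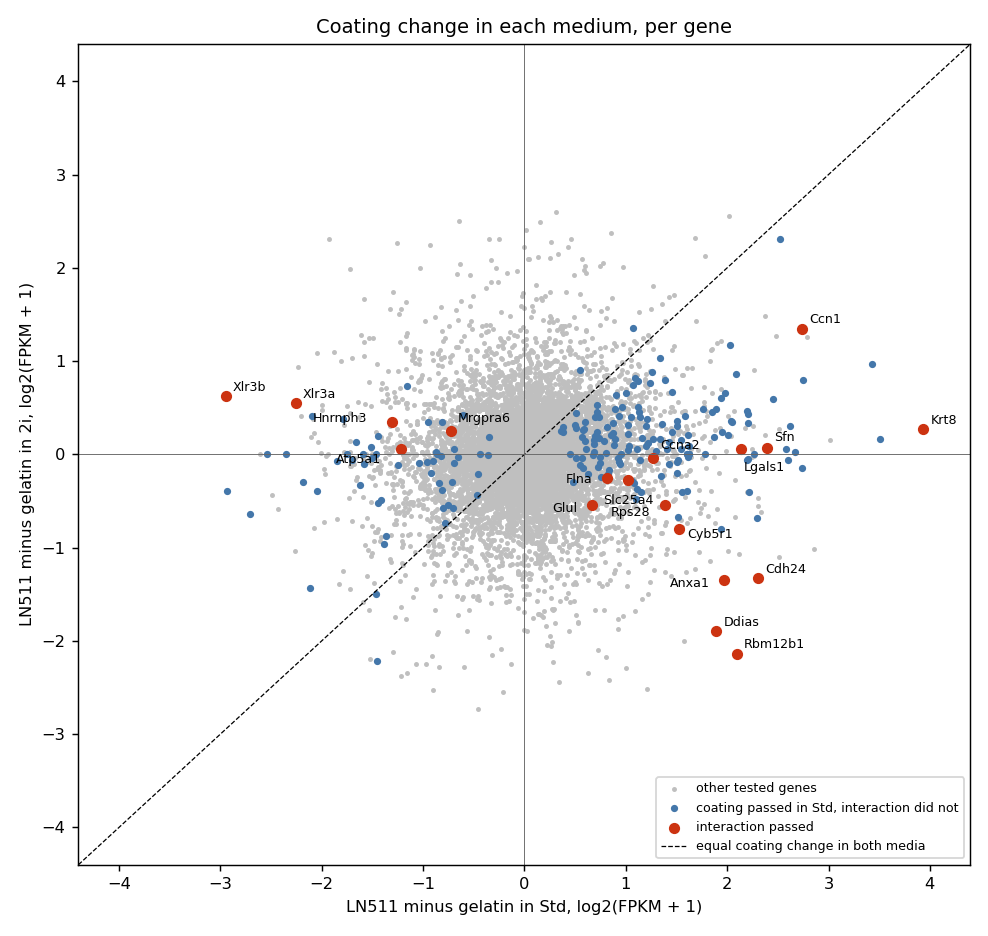
Coating difference of every tested gene (LN511 minus gelatin, log2(FPKM + 1), mean of 2 libraries per group) in Std on the x axis and in 2i on the y axis. Red points are the 19 interaction genes, blue points the 197 others that changed in Std, grey points the remaining tested genes, and the dashed line marks equal differences in both media. Most red points lie near the horizontal axis or across it, and Ccn1 is the red point with a positive difference in both media that passed in each.

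The 158 genes that rose on LN511 in Std had a median coating difference of 1.2 on the log2 scale there and 0.15 in 2i, and 102 of them (64.6%) had the same sign in 2i. The 58 genes that fell in Std had a median of -1.27 there and -0.06 in 2i, and 34 (58.6%) had the same sign. Over all tested genes, 53.3% had the same sign in both media, and the median interaction was -0.0448. These genes were chosen by their difference in Std, so the smaller medians in 2i are a description.

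For 3 interaction genes, the stretch before the transcription start is printed because each holds the TEAD motif that was looked for, and because Ccn1 is a long-known target of YAP and TEAD. The sequences are RefSeq's, build GRCm38.p6, minus strand, 250 bases before the start site of the entry, 5′ to 3′, at chr3:145649986-145650235 for Ccn1, chr19:20390672-20390921 for Anxa1 and chrX:74246535-74246784 for Flna. The Flna start site of this entry lies inside the annotated span of the gene. Capitals mark the motif, GGAATG on the opposite strand.
Ccn1: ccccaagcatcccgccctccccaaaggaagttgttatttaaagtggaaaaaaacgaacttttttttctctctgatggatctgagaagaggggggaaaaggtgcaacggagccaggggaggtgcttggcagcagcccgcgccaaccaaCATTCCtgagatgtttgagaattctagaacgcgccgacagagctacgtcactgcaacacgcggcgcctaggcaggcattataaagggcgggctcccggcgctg
Anxa1: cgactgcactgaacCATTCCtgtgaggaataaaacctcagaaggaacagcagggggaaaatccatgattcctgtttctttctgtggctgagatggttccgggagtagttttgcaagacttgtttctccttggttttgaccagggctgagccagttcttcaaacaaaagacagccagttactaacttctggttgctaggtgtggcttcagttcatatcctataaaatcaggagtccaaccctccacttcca
Flna: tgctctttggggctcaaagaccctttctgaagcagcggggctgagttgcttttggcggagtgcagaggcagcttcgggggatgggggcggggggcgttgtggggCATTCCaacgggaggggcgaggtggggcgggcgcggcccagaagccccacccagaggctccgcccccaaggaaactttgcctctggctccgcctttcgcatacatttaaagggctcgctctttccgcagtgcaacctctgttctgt
The match begins 103 bases before the start in Ccn1, 236 in Anxa1 and 146 in Flna. Of the 19 genes, 14 had a single promoter entry, and windows of 300 bases, with 50 after the start, were searched on both strands. GGAATG was in 4 of the 14, these 3 and Cyb5r1, and in 11.8% of the 6633 promoters of tested genes. The TCF/LEF motif CTTTGA was in 1 of the 14, Flna, against 11.5% of all. The AP-1 motif TGANTCA (4.3% of all), the STAT motif TTCNNNGAA (6.3%) and the E-box CACGTG (10.8%) were in 0 of the 14. These matches are letters in a window and say nothing of binding.

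Among genes of epithelial structure, Krt8, which encodes a keratin of simple epithelia and lies at chr15:101996711-102004342, had the largest coating difference in Std of the 19 genes. Its level was 4.77 and 5.19 FPKM on gelatin in Std, 87.3 and 93.4 on LN511 in Std, 9.51 and 11.9 on gelatin in 2i, and 12.5 and 13.6 on LN511 in 2i. The LN511 libraries in Std stood alone, and both 2i groups lay between them and gelatin in Std. The coating difference was 3.93 on the log2 scale in Std and 0.27 in 2i (95% interval -0.11 to 0.65), an interaction of -3.66 (SE 0.22, adjusted p = 0.0114, limma). Krt8 passed in 4 of the 8 fits that left out a library, more than any other of the 19 genes.

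Sfn (chr4:133600556-133602168), which encodes 14-3-3σ, an epithelial protein that restrains the cell cycle, showed the same shape. It was at 25.3 and 22.1 FPKM on gelatin in Std, 124 and 132 on LN511 in Std, 43.8 and 40.3 on gelatin in 2i, and 41.2 and 47.2 on LN511 in 2i. The 2i groups overlapped each other, and the interaction was -2.32 (SE 0.17, limma adjusted p = 0.0114). Sfn is also a target of p53. Of 17 tested p53 targets, Sfn passed, against 0.185% of all tested genes. At an unadjusted p under 0.05, 5 had a negative and 1 a positive interaction (7.38% and 4.79% of all tested genes). The median interaction was -0.25. In Std, 3 rose and 1 fell on LN511 at an adjusted p under 0.05 by limma, against 1.54% and 0.564% of all. Cdkn1a, the best-known target, was at 32.4 to 37.4 FPKM in the Std libraries and 74.2 to 82.8 in the 2i libraries, with an interaction of 0.06 (SE 0.15, adjusted p = 0.906).

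Krt8 and Sfn were the 2 of 21 tested keratin and epithelial junction genes that passed, against 0.185% of all tested genes. Over the 21, the median coating difference was 0.8 in Std and 0.06 in 2i, the median interaction was -0.83, and 8 had a negative and 0 a positive interaction at an unadjusted p under 0.05, against 7.38% and 4.79% of all tested genes. Krt18, the keratin that pairs with Krt8, was at 10.2 and 10.7 FPKM on gelatin and 75.5 and 76.7 on LN511 in Std, and at 4.52 and 3.66 on gelatin and 5.76 and 10.6 on LN511 in 2i. Its interaction was -1.95 (SE 0.37, adjusted p = 0.13) and did not pass. Krt19, a further simple keratin, had an interaction of -2.52 (adjusted p = 0.0898), and Cldn4, a tight junction claudin, one of -0.83 (adjusted p = 0.0703). Cdh1, which encodes E-cadherin, had a coating difference of 0.24 in Std and -0.17 in 2i, and neither difference nor the interaction of -0.41 passed.

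Keratins also mark trophoblast, so the trophoblast markers were read beside these values. The 18 markers with a row summed to 38.2 and 43.7 FPKM on gelatin in Std, 206 and 206 on LN511 in Std, 52 and 71.4 on gelatin in 2i, and 43.1 and 52.4 on LN511 in 2i. Without Krt8 and Krt18, the sums were 23.2 and 27.8 FPKM on gelatin and 43.3 and 36 on LN511 in Std, and 38 and 55.9 on gelatin and 24.9 and 28.2 on LN511 in 2i. These sums were thus higher on LN511 in Std and lower on LN511 in 2i. Tfap2c had the highest mean level of the markers left, and a sum is weighted to its highest members. Gata3 was at 0.409 and 0.128 FPKM on gelatin and 2.33 and 1.77 on LN511 in Std, and at 1.66 and 1.5 on gelatin and 0 and 2.98 on LN511 in 2i. Tpbpa was at 0 in every library, Elf5 reached at most 0.194 FPKM and Cdx2 at most 2.15, while Hand1 was at 3.12 and 2.35 FPKM on LN511 in Std, 0.487 and 0 on gelatin in Std and 0 in all 4 libraries in 2i. Of the 13 markers tested, Krt8 passed, against 0.185% of all tested genes. At an unadjusted p under 0.05, 8 of the 13 had a negative interaction, against 7.38% of all tested genes. In these bulk libraries more cells of a type and more RNA per cell cannot be told apart, and the part of such cells in the keratin values was not tested.

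The annexins, S100 proteins and galectins, small proteins that bind calcium and membranes or, for galectins, sugars, held 2 interaction genes of 17 tested. Of all tested genes, 0.185% passed. Lgals1, which encodes galectin-1 (chr15:78926725-78930465), was at 25.8 and 33.8 FPKM on gelatin and 125 and 141 on LN511 in Std, and at 32.4 and 31.3 on gelatin and 34.9 and 31.4 on LN511 in 2i. All 6 libraries outside LN511 in Std lay within a narrow range, and the interaction was -2.08 (SE 0.21, limma adjusted p = 0.032). Anxa1, the phospholipid-binding annexin A1 (chr19:20373434-20390671), had a crossed pattern. It was at 1.04 and 1.47 FPKM on gelatin and 7.28 and 8.32 on LN511 in Std, but at 6.41 and 6.76 on gelatin and 1.65 and 2.36 on LN511 in 2i. The coating difference was 1.97 in Std and -1.35 in 2i (95% interval -1.95 to -0.74), and the interaction was -3.31 (SE 0.36, limma adjusted p = 0.0395). The difference in 2i did not pass in this fit (adjusted p = 0.135). It passed in the fit of the authors' deposited gene table restricted to 794 genes above 0 in every library (limma adjusted p = 0.0163), which placed Anxa1 in the sign-turned class. The estimates for Anxa1 were the same in both fits, so the second is no separate measurement, and it adjusts over fewer genes.

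Of the other members of that list, Anxa3 was at 1.49 and 0.417 FPKM on gelatin and 20.8 and 17.8 on LN511 in Std, and its interaction of -2.46 did not pass (adjusted p = 0.137). Anxa5 had coating differences of 1.35 in Std and -0.84 in 2i, and Lgals3 of 1.48 and -0.49, with interactions of -2.19 (adjusted p = 0.139) and -1.97 (adjusted p = 0.137). S100a1 was at 0.52 to 1.95 FPKM in the Std libraries, 14.2 and 13.2 on gelatin in 2i, and 3.45 and 3.52 on LN511 in 2i, so its estimate lay in 2i (-1.71) and not in Std (0.13), with an interaction adjusted p of 0.224. Across the 17 genes, 10 had a negative and 0 a positive interaction at an unadjusted p under 0.05, against 7.38% and 4.79% of all tested genes, and the medians were 0.82 in Std, -0.07 in 2i and -1.04 for the interaction.

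Among the 27 tested genes of adhesion and the actin cytoskeleton, Flna passed, against 0.185% of all tested genes. It encodes filamin A, which crosslinks actin and binds integrin tails (chrX:74223461-74249854). Its level was 55.4 and 57.1 FPKM on gelatin and 101 and 99.1 on LN511 in Std, against 62.9 and 67.6 on gelatin and 56.6 and 52.8 on LN511 in 2i. The interaction was -1.07 (SE 0.12, limma adjusted p = 0.0422), and the libraries of LN511 in 2i lay below those of gelatin in 2i by an estimate of -0.25 that did not pass. Of 27 tested members of the list, 25 had a negative estimate, 11 of them at an unadjusted p under 0.05, with medians of 0.82 in Std, 0.19 in 2i and -0.58 for the interaction. Of all tested genes, 7.38% were negative at that level, and their median interaction was -0.0448. In Std, 8 of the 27 rose on LN511 at an adjusted p under 0.05 by limma, against 1.54% of all tested genes.

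Cnn2, an actin-binding calponin of the same list, was at 14.7 and 17.9 FPKM on gelatin and 64.3 and 59.5 on LN511 in Std, and at 18.7 to 24.0 FPKM over the 4 libraries in 2i. Its interaction of -1.68 (SE 0.21) missed the threshold (adjusted p = 0.0519). The focal adhesion genes Zyx and Ilk rose on LN511 in Std by 1.30 and 1.02, with 0.04 and 0.22 in 2i, and their interactions did not pass (adjusted p = 0.173 and 0.231). Tpm4, a tropomyosin, rose by 1.09 in Std with an estimate of 0.82 in 2i, so not every gene of the list had a small estimate in 2i.

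Integrins and laminin receptors gave 0 interaction genes of 12 tested with limma, against 0.185% of all tested genes. Of the 12, 4 had a negative interaction at an unadjusted p under 0.05, against 7.38% of all tested genes. Itga6, the α6 chain of the main laminin-511 receptor, was at 32.9 and 30.3 FPKM on gelatin and 38.2 and 38.0 on LN511 in Std, and at 27.1 to 29.3 FPKM over the 2i libraries. Its interaction was -0.32 (SE 0.15, adjusted p = 0.461). Bcam, a receptor for laminin α5 chains, rose on LN511 in Std from 51.7 and 42.0 to 130 and 128 FPKM, and was at 141 and 141 on gelatin and 161 and 171 on LN511 in 2i, with an interaction of -1.22 (SE 0.15, adjusted p = 0.0519). In Bcam, gelatin in Std was the low group and both 2i groups stood at or above LN511 in Std. Among 16 extracellular matrix genes, 0 passed with limma and 3 had a negative interaction at an unadjusted p under 0.05. Col4a1, a basement membrane collagen chain, had coating differences of 1.07 in Std and 1.35 in 2i, and Fn1, fibronectin, of -0.74 and -0.75.

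Ccn1, also known as Cyr61, encodes a secreted matrix protein induced by YAP and SRF (chr3:145646971-145649985), and it was the one interaction gene that rose on LN511 in both media. It was at 11.3 and 10.4 FPKM on gelatin and 77.7 and 78.4 on LN511 in Std, and at 16.9 and 16.1 on gelatin and 43.0 and 44.0 on LN511 in 2i. The coating difference was 2.74 in Std and 1.35 in 2i (limma adjusted p = 0.0369 in 2i), and the interaction was -1.39 (SE 0.15, limma adjusted p = 0.0415). Its response in 2i was smaller, with no overlap of any groups. Ccn2, a related target, had estimates of 1.26 in Std and 0.88 in 2i. Fhl1, a LIM protein of the same list, had 1.52 and -0.67, with an interaction of -2.18 (adjusted p = 0.054). Of the 12 tested YAP and SRF targets, Ccn1 passed, 4 had a negative and 1, Srf itself, a positive interaction at an unadjusted p under 0.05. Of all tested genes, 0.185% passed, and the shares at that unadjusted level were 7.38% negative and 4.79% positive.

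**Figure D2:**
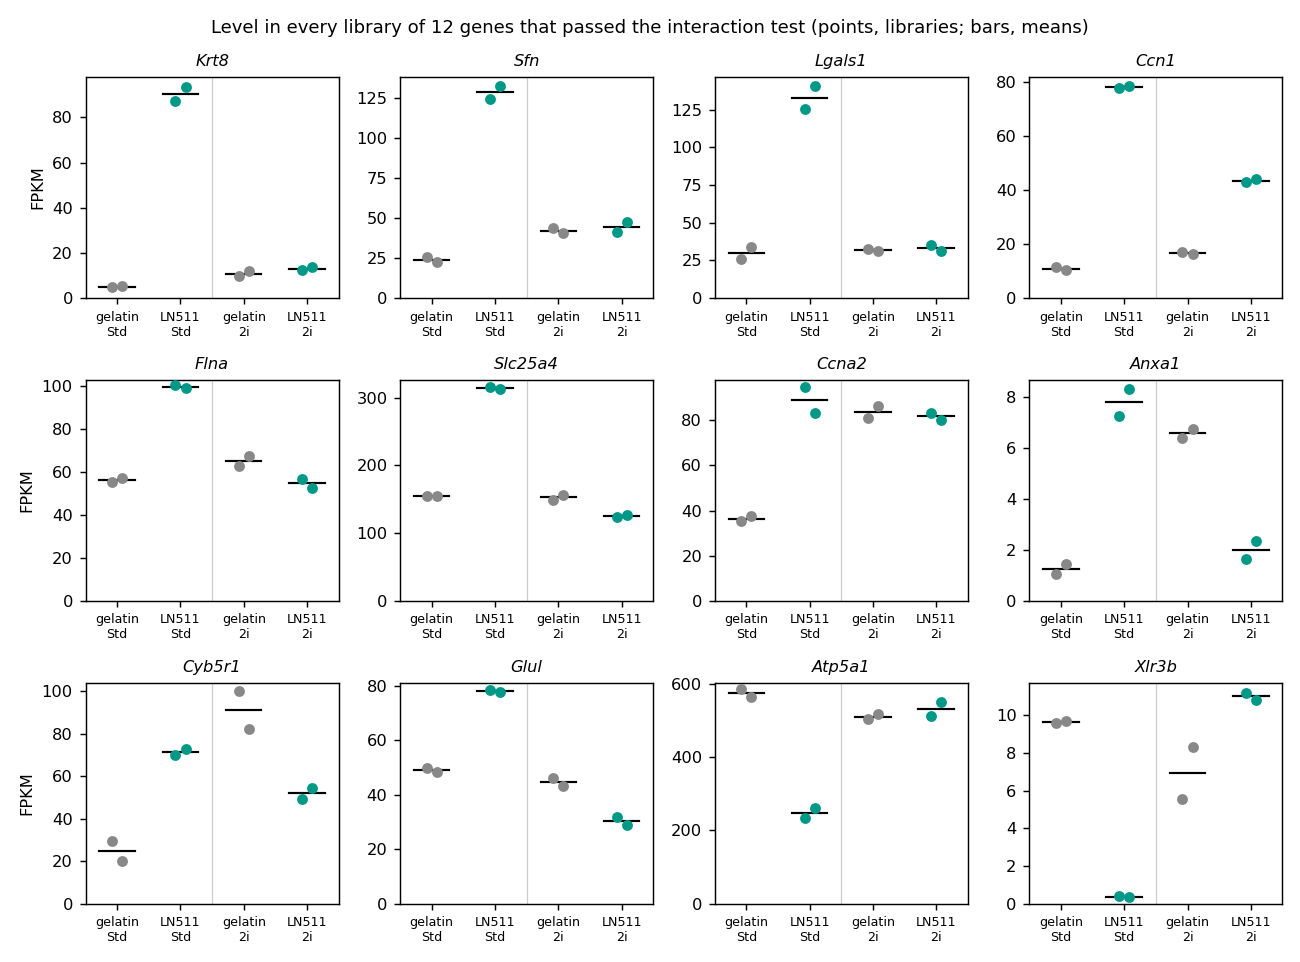
FPKM in every library of 12 interaction genes, 1 panel per gene with its own linear axis from 0; points are libraries, bars are means of 2, grey is gelatin and green LN511. LN511 in Std stands alone in Krt8, Sfn, Lgals1, Slc25a4 and Atp5a1, gelatin in Std stands alone in Ccna2, and Anxa1 is crossed, at 6.41 and 6.76 FPKM on gelatin in 2i against 1.65 and 2.36 on LN511.

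Genes of metabolism passed in both directions. Slc25a4, the mitochondrial carrier that exchanges ADP for ATP (chr8:46207168-46211062), was at 154 and 154 FPKM on gelatin and 316 and 313 on LN511 in Std, and at 148 and 157 on gelatin and 124.5 and 127 on LN511 in 2i. Its interaction was -1.30 (SE 0.09, limma adjusted p = 0.0114). Atp5a1, the α subunit of the mitochondrial ATP synthase on chromosome 18, moved the other way, from 585 and 565 FPKM on gelatin to 234 and 260 on LN511 in Std, and was at 503 and 517 on gelatin and 513 and 551 on LN511 in 2i. Its interaction was 1.28 (SE 0.10, limma adjusted p = 0.0151). It was the 1 of 21 tested oxidative phosphorylation genes that passed, against 0.185% of all tested genes. Atp5b, which encodes the β subunit of the same enzyme, had an interaction of 0.10 (limma adjusted p = 0.636), or -0.05 after quantile normalization. The median interaction of the 21 was 0.07, with 5 positive and 0 negative at an unadjusted p under 0.05, against 4.79% and 7.38% of all tested genes.

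Glul, the enzyme that makes glutamine (chr1:153899929-153909723), was at 49.8 and 48.2 FPKM on gelatin and 78.6 and 77.8 on LN511 in Std, and at 46.1 and 43.3 on gelatin and 31.8 and 28.9 on LN511 in 2i. Its estimates, 0.66 in Std and -0.54 in 2i, had opposite signs, and the interaction was -1.21 (SE 0.14, limma adjusted p = 0.0422). Cyb5r1, a cytochrome b5 reductase (chr1:134405781-134411738), was at 29.4 and 19.9 FPKM on gelatin and 69.9 and 72.6 on LN511 in Std, and at 99.9 and 82.3 on gelatin and 49.2 and 54.6 on LN511 in 2i. Its interaction was -2.32 (SE 0.27, limma adjusted p = 0.0422). For both genes the 4 groups did not overlap, and the order of the coatings was the reverse in 2i, without the difference in 2i passing (adjusted p = 0.126 for Glul and 0.217 for Cyb5r1).

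Ccna2 encodes cyclin A2, which drives S phase and entry into mitosis (chr3:36564865-36573038). It was at 35.2 and 37.5 FPKM on gelatin in Std, 94.9 and 83.2 on LN511 in Std, 81.1 and 86.4 on gelatin in 2i and 83.4 and 80.1 on LN511 in 2i. Gelatin in Std was the group that stood apart, and the interaction was -1.30 (SE 0.14, limma adjusted p = 0.0395). Ccnd1, the G1 cyclin D1, was instead high on LN511 in Std, at 79.4 and 80.7 FPKM against 34.0 to 50.6 FPKM in the other 6 libraries, with an interaction of -1.05 that did not pass (adjusted p = 0.0968).

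Hnrnph3 and Rps28, genes of RNA biology, had interactions of opposite sign. Hnrnph3, an RNA-binding splicing factor (chr10:63014664-63023980), was at 45.9 and 46.0 FPKM on gelatin in Std and between 17.5 and 25.4 FPKM in the other 6 libraries, with an interaction of 1.65 (SE 0.20, limma adjusted p = 0.0442). Rps28, a protein of the small ribosomal subunit (chr17:33823036-33824562), was at 1040 and 1008 FPKM on gelatin in Std and between 1786 and 3362 FPKM in the other 6, with an interaction of -1.94 (SE 0.23, limma adjusted p = 0.0422). In both genes gelatin in Std stood apart. Rps28 has processed pseudogenes with near-identical sequence, so its value is uncertain. The other ribosomal protein genes did not share its direction: 0 of the 27 tested in a list without Rps28 passed with limma, 23 had a positive estimate, 5 at an unadjusted p under 0.05, and the median interaction was 0.13. Of all tested genes, 4.79% were positive at that level, and their median was -0.0448. After quantile normalization, 21 of the 27 were positive with a median of 0.05, against a median of 0.01 over all tested genes.

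The low genes Rbm12b1, Ddias and Cdh24 had crossed patterns that rest on values listed at 0. Rbm12b1, an RNA-binding motif gene (chr4:12138957-12148922), was listed at 0 in both gelatin libraries in Std and both LN511 libraries in 2i, and at 3.37 and 3.18 FPKM on LN511 in Std and 3.69 and 3.12 on gelatin in 2i. Ddias, an apoptosis suppressor induced by DNA damage (chr7:92857525-92874917), had the same shape, with 0 in those 4 libraries, 2.83 and 2.60 on LN511 in Std and 2.33 and 3.16 on gelatin in 2i. Cdh24, a classical type II cadherin (chr14:54631231-54642067), was listed at 0 on gelatin in Std, at 3.68 and 4.23 FPKM on LN511 in Std, at 3.83 and 3.78 on gelatin in 2i and at 1.42 and 0.509 on LN511 in 2i. With a pseudocount of 1, the interactions were -4.23 (SE 0.34, limma adjusted p = 0.0151) for Rbm12b1, -3.79 (SE 0.36, adjusted p = 0.0299) for Ddias and -3.64 (SE 0.43, adjusted p = 0.0442) for Cdh24. The sizes depend on that pseudocount: with 0.1 they were -10.20, -9.63 and -7.36. A 0 may be a failed estimate, and Rbm12b1 has close paralogs between which reads could be split. The differences in 2i did not pass for Rbm12b1 (adjusted p = 0.0542) or Ddias (adjusted p = 0.0657), but Rbm12b1 turned sign in 3 other settings, with all genes above 0 fitted, with doubtful zeros kept or without the mean-variance trend, and Ddias in the last of these.

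Xlr3a and Xlr3b, neighbouring and near-identical genes of the X-linked lymphocyte-regulated family, had the highest positive interactions. Xlr3b (chrX:73192150-73202930) was at 9.61 and 9.68 FPKM on gelatin and 0.406 and 0.356 on LN511 in Std, and at 5.56 and 8.30 on gelatin and 11.2 and 10.8 on LN511 in 2i. Its interaction was 3.57 (SE 0.35, limma adjusted p = 0.0299). Xlr3a (chrX:73086293-73097095) was at 12.7 and 12.5 FPKM on gelatin and 1.53 and 2.21 on LN511 in Std, and at 8.49 and 7.63 on gelatin and 12.6 and 11.9 on LN511 in 2i, with an interaction of 2.81 (SE 0.29, limma adjusted p = 0.0363). LN511 in Std was the low group for both, and reads could be shared between the copies, so they count as 1 observation at most. The coating estimates in 2i were positive, 0.62 and 0.55, and did not pass. Mrgpra6 (chr7:47185717-47189416), given in the files as a non-coding transcript, was at 507 and 526 FPKM on gelatin and 322 and 302 on LN511 in Std, and at 405 and 378 on gelatin and 476 and 456 on LN511 in 2i, with an interaction of 0.98 (SE 0.10, limma adjusted p = 0.0299).

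**Figure D3:**
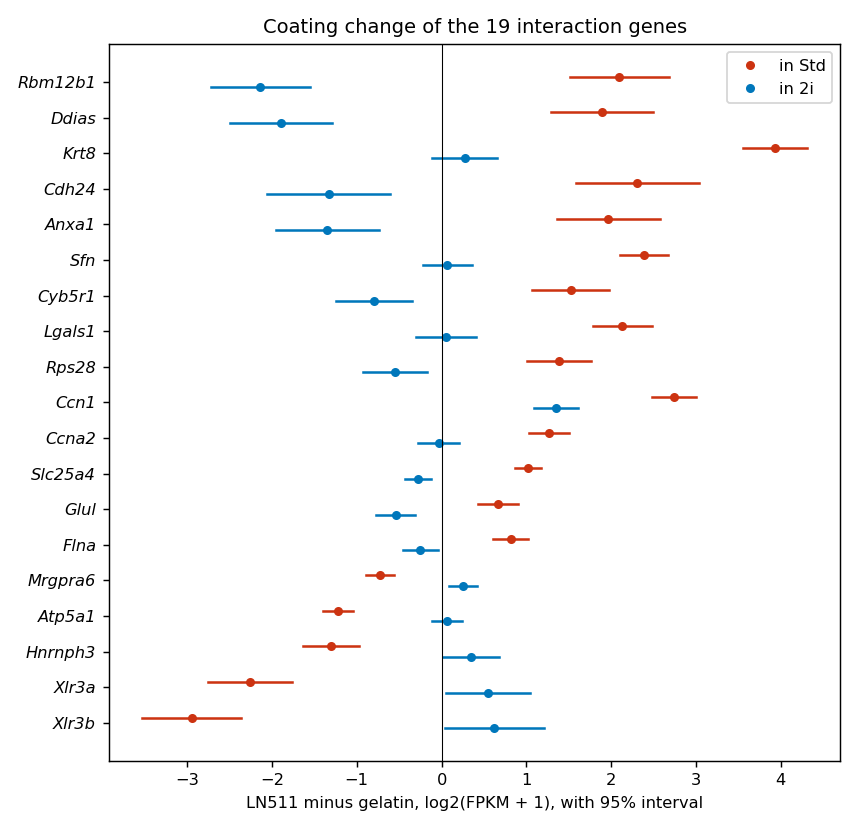
Coating difference (LN511 minus gelatin, log2(FPKM + 1)) of the 19 interaction genes in Std (red) and in 2i (blue), 2 libraries per group, with unadjusted 95% intervals from the shared fit. The intervals in Std lie clear of 0 for all 19, and Ccn1 is the 1 gene whose interval in 2i lies clear of 0 on the same side; the genes are ordered by interaction from -4.23 (Rbm12b1) to 3.57 (Xlr3b).

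Pluripotency genes gave 0 interaction genes with limma, against 0.185% of all tested genes. Of 17 tested naive pluripotency genes, 2 had a positive and 6 a negative interaction at an unadjusted p under 0.05, and the median was -0.36. Among all tested genes the shares at that level were 4.79% positive and 7.38% negative. Nanog, a core pluripotency factor, was at 56.7 and 53.1 FPKM on gelatin and 48.4 and 43.2 on LN511 in Std, and at 446 and 455 on gelatin and 550 and 614 on LN511 in 2i, an interaction of 0.62 (SE 0.13, adjusted p = 0.149). Esrrb, a nuclear receptor of the naive state, had coating estimates of 1.06 in Std and -0.45 in 2i (interaction adjusted p = 0.244), and Tfcp2l1 of 0.50 and -0.37 (adjusted p = 0.277). Pou5f1, Sox2 and Klf4 had interactions of -0.0036, 0.09 and 0.11, with standard errors of 0.10, 0.11 and 0.17. In the list of formative and primed genes, 4 of 15 had a positive and 0 a negative interaction at an unadjusted p under 0.05, with a median of 0.63. The de novo methylation gene Dnmt3l was at 152 and 129 FPKM on gelatin and 227 and 236 on LN511 in 2i, against 491 to 547 FPKM in all Std libraries, with an interaction of 0.67 (adjusted p = 0.137). Dnmt3b varied between replicates (122 and 260 FPKM on gelatin in Std), and its interaction of 1.41 had a standard error of 0.61.

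Targets of ERK, which MEK activates, and of LIF and STAT3 gave 0 interaction genes with limma, against 0.185% of all tested genes. Dusp6, a phosphatase induced by ERK, was at 46.4 to 74.1 FPKM in Std and 1.43 to 2.78 FPKM in 2i, with an interaction of -0.27 (SE 0.31, adjusted p = 0.78). Of 14 ERK feedback and target genes, 1 had a positive and 4 a negative interaction at an unadjusted p under 0.05, and the median was -0.26. Etv5, an ETS factor downstream of ERK, was at 65.0 and 52.6 FPKM on gelatin and 66.9 and 69.7 on LN511 in Std, and at 32.4 and 33.4 on gelatin and 71.7 and 71.5 on LN511 in 2i. Its interaction was 0.88 (SE 0.17, adjusted p = 0.126). Of 15 LIF and STAT3 response genes, 1 had a positive and 6 a negative interaction at an unadjusted p under 0.05, against 4.79% and 7.38% of all tested genes, and Socs2, a feedback inhibitor of cytokine signalling, had estimates of 0.53 in Std and -0.86 in 2i (interaction adjusted p = 0.137).

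The genes below had their larger coating estimate in 2i and were named after their values were seen. Prdx6, a peroxidase, rose on LN511 in 2i from 59.0 and 53 to 128 and 154 FPKM (1.31, limma adjusted p = 0.0369) and was at 150 and 155 on gelatin and 194 and 202 on LN511 in Std, but the interaction of 0.94 did not pass (adjusted p = 0.0902), so a response in 2i alone was not shown. Gldc, the glycine decarboxylase, was at 21.3 and 18.8 FPKM on gelatin and 44.4 and 43.8 on LN511 in 2i, and at 92.0 and 100.4 on gelatin and 84.2 and 69.0 on LN511 in Std, with an interaction of 1.43 (SE 0.18, adjusted p = 0.0519). Apela, a secreted peptide ligand, was at 28.03 and 38.7 FPKM on gelatin and 12.1 and 13.9 on LN511 in 2i, and at 33.4 and 34.8 on gelatin and 51.7 and 51.6 on LN511 in Std, with an interaction of -1.87 (SE 0.24, adjusted p = 0.0519). With genes of a mean of at least 5 FPKM in the highest group tested, Gldc and Apela passed for the interaction (adjusted p = 0.035 each) and for the coating in 2i alone. Marcks, an actin-binding substrate of protein kinase C, was at 9.74 to 12.2 FPKM in 6 libraries and at 3.08 and 4.03 FPKM on LN511 in 2i, and passed in the fit of the authors' deposited gene table alone (limma adjusted p = 0.017, against 0.15 here). Its estimates were the same in both fits.

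Across the lists, the medians of the coating difference were apart in a few groups. The largest positive median interaction was that of the 2-cell-like genes, which mark a rare totipotent-like state, at 1.01 over 9 tested members, with a median of -0.14 in Std and 0.97 in 2i. All 9 estimates were positive and 4 had an unadjusted p under 0.05, but 0 passed with limma, and most are near-identical copies that share reads. For this and the lists below, 4.79% of all tested genes were positive and 7.38% negative at that level. Zscan4c had estimates of -0.74 in Std and 0.99 in 2i (interaction adjusted p = 0.21). Immediate early and stress response genes had a median interaction of -0.56 over 17 tested, with 5 negative and 0 positive at an unadjusted p under 0.05. Germline genes had a median of 0.50 over 13, with 3 positive and 1 negative, and imprinted genes -0.37 over 16, with 1 positive and 3 negative. The lists were written with earlier results of these data known, and nothing particular to a list is drawn from these medians.

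**Figure D4:**
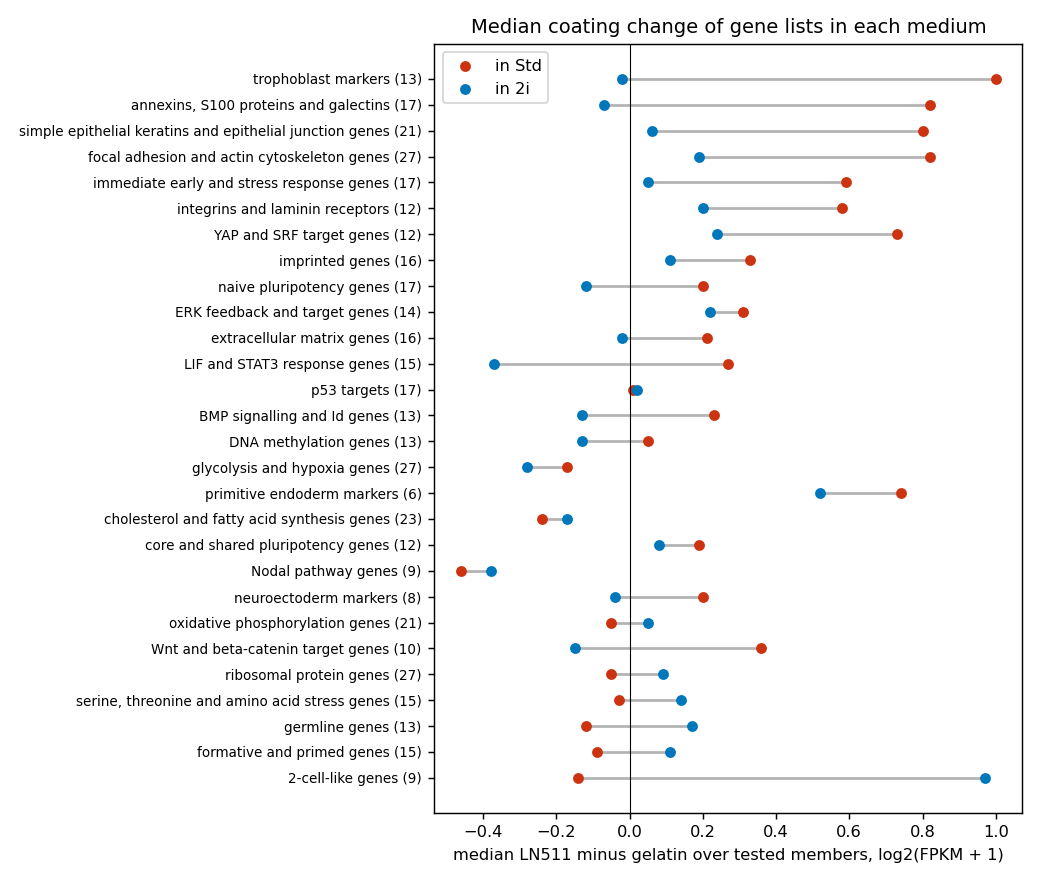
Median coating difference (LN511 minus gelatin, log2(FPKM + 1)) over the tested members of each of 28 gene lists in Std (red) and in 2i (blue), with the number of tested members in brackets; lists are ordered by median interaction. Trophoblast markers (median interaction -1.27) and annexins, S100 proteins and galectins (-1.04) have the largest gap with Std higher, and 2-cell-like genes (1.01) the largest with 2i higher.

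Among the genes set aside because a whole group was listed at 0, Igf2, the imprinted growth factor, was at 0 and 0 FPKM on gelatin and 12.8 and 9.7 on LN511 in Std, and at 1.29 and 1.22 on gelatin and 0.761 and 0.079 on LN511 in 2i. The authors' deposited gene table gave it 1.26 and 0.882 on gelatin and 17.0 and 17.6 on LN511 in Std, and 1.72, 1.22, 0.761 and 0.625 in the 2i libraries, and there its interaction was -3.69 (limma adjusted p = 0.0002). There, 42 of the 794 genes passed (5.29%), of which Krt8, Sfn, Lgals1, Anxa1 and Mrgpra6 were also among the 19. Krt18, Krt19, Wnt7b and Cldn4 passed there as well. The genes named from that table, Igf2 aside, had the same estimates in the main fit, so their passing there is no separate measurement. Usp9x had a crossed pattern that rests on values listed at 0. It was at 6.62 and 29.85 FPKM on gelatin and 0 and 0 on LN511 in Std. In 2i it was at 0 and 0 on gelatin and 13.4 and 13.9 on LN511. Nasp, a histone chaperone, was listed at 0 in 6 libraries and at 140 and 230 FPKM on LN511 in 2i. Bex2 was at 0 on LN511 in 2i and at 30.8 to 42.0 FPKM elsewhere. With doubtful zeros kept in the fit, the interaction passed for Nasp and Bex2 (limma adjusted p = 0.00692 and 0.00158), and it rests there on values listed at 0.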

How the data were processed

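RNA from 8 mouse embryonic stem cell cultures was sequenced, 2 libraries in each of 4 groups of coating and medium. The authors deposited FPKM values per transcript and per gene, per the file headers. TopHat2 2.1.1, Cufflinks 2.1.1 and build mm10 are named in the submitters' processing notes without their roles, and for annotation, strand and scaling the sources used here give nothing. RefSeq transcript rows were summed per gene symbol with a RefSeq GRCm38.p6 table (31786 of 32688 matched), and 21844 assembled-transcript rows were left out. All 19 interaction genes had a single RefSeq row, against 71.0% of tested genes, so no gene with summed rows passed in the main fit. The authors' gene table was an alternative, because 47.2% of summed values of 1 FPKM or more stand at 0 in it.

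Genes reaching 1 FPKM in 2 or more libraries and without a doubtful zero by the 5 FPKM rule above were fitted as log2(FPKM + 1), which understates changes of low genes, with limma 3.58.1 in R 4.3.3 (4 group means, mean-variance trend, 4 residual degrees of freedom). P-values were two-sided and Benjamini-Hochberg adjusted over all 10278 genes, with a threshold of 0.05. Depth is unknown, since no counts are given, and 2 libraries per group limit the precision. Genes were named from those that passed (the 10 highest and 10 lowest interactions with a mean of at least 5 FPKM in the highest group and no overlap of the 4 replicate-wise differences, the 6 largest of each class and the 2 with the smallest adjusted p of each list), and from a panel that was given whatever its result. Of the genes set aside with a whole group at 0, the rule takes the 8 with the largest difference. Tmem223, Ybx2, Mknk2 and Atp6v0c-ps2 of these are not described. The remaining names, Rbm12b1, Ddias and Cdh24 with means under 5 FPKM included, were chosen after their values were seen. The comparison and the gene lists were chosen with earlier results of these data known. Alternatives were the filter, pseudocount, scaling, zeros, gene table, variance prior, a replicate block and leaving out each library.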

Additional observations from a re-analysis of the deposited data

Results flagged for a closer look

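In the main fit, each of the 19 interaction genes passed limma's test of a difference between media in the response to the coating. These calls depended on every library, and with the replicate block Krt8 alone passed. The interactions (log2, 2i minus Std) were -4.23 for Rbm12b1, -3.79 for Ddias and -3.64 for Cdh24, all resting on values listed at 0. They were -3.66 for Krt8, -3.31 for Anxa1, -2.32 for Sfn, -2.32 for Cyb5r1, -2.08 for Lgals1 and -1.94 for Rps28. They were -1.39 for Ccn1, -1.30 for Ccna2, -1.30 for Slc25a4, -1.21 for Glul and -1.07 for Flna. On the positive side they were 0.98 for Mrgpra6, 1.28 for Atp5a1, 1.65 for Hnrnph3, 2.81 for Xlr3a and 3.57 for Xlr3b.

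In the rows of assembled transcripts, which entered no comparison, 92.4% of values were 0 in replicate 1 of gelatin in 2i, against 75.1% to 78.3% in the other 7 libraries. In the RefSeq rows that were used, 55.2% to 57.7% of values were 0 in each library. Without that library 2 genes passed for the interaction.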

How the results depend on the processing

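The 19 interaction genes kept their direction in every setting that fitted them, which is no independent support because they were chosen from the same libraries. Among 1240 values of 82 named genes under alternatives, 11 reversed. The number that passed varied. In these counts, a change in one medium alone means that the coating did not pass in the other. With the authors' gene table, 42 passed (18 positive, 24 negative), of which 34 changed in Std alone, 3 in 2i alone, 1 with opposite signs, 0 in both media alike and 4 in neither. With doubtful zeros kept, 53 passed (22 positive, 31 negative), with 34 in Std alone, 14 in 2i alone, 1 with opposite signs and 3 in neither, and the coating passed for 42 genes in 2i. With no filter, 31 passed (15 positive), with 3 in 2i alone and 1 with opposite signs. With a mean of at least 5 FPKM in the highest group, 28 passed (10 positive), with 2 in 2i alone and 1 in neither. Without the mean-variance trend, 15 passed (8 negative), with 1 in 2i alone, 2 with opposite signs and 0 in both media alike. With a pseudocount of 0.1, 15 passed, 0 of them in both media alike, and 0 genes changed with the coating in 2i. Quantile normalization gave 22.

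Deviations of same-numbered libraries from their group means correlated at -0.02 to 0.019 over 6 pairs of groups. No strong shift shared by replicate number was thus seen, but this cannot show that the libraries were not handled in pairs. With the replicate block, 1 gene passed, Krt8 (0 positive, 1 negative, 1 in Std alone, 0 in both media alike), and the coating passed for 80 genes in Std and 0 in 2i. The block uses 1 of 4 residual degrees of freedom.

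Over the 8 fits that left out 1 library, with the lone library of a group taken to vary like the others, 0 to 11 genes passed (0 to 2 positive, 0 to 10 negative). Of these, 0 to 6 changed in Std alone, 0 to 4 in 2i alone, 0 to 1 with opposite signs, 0 in both media alike and 0 to 1 in neither. The coating passed for 9 to 199 genes in Std and 0 to 12 in 2i. In Std it passed for 9 or 18 genes with one of the LN511 Std libraries left out, for 39 or 41 with one of the gelatin Std libraries left out and for 75 or 74 with one of the gelatin 2i libraries left out. Krt8 passed in 4 of these 8 fits, Sfn, Slc25a4 and Atp5a1 in 2 each and the other 15 genes in 0, with adjusted p up to 0.195.

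Interactions near 0 reversed. Over the fits that left out 1 library, Cdkn1a ranged from -0.04 (without gelatin Std replicate 2) to 0.16, Dusp6 from -0.56 to 0.03 (without LN511 2i replicate 2) and Klf4 from -0.03 (without LN511 Std replicate 1) to 0.26. Pou5f1 ranged from -0.09 to 0.08 and was positive in 4 of these fits (0.08, 0.02, 0.03 and 0.05), and Fn1 ranged from -0.17 to 0.15 and was positive in 3 (0.15, 0.13 and 0.03). Atp5b was -0.05 after quantile normalization. The causes of these shifts were not tested, except that fewer libraries, or a block, leave fewer residual degrees of freedom. With 2 libraries per group and no counts, a gene that missed the threshold is not shown to respond alike in both media.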

Other observations

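Some interactions below the threshold, picked after their values were seen, were as large as those that passed. Wnt7b, a secreted Wnt ligand, was at 0.13 and 0.243 FPKM on gelatin and 5.48 and 6.95 on LN511 in Std, and at most at 0.524 FPKM in 2i (limma interaction -2.65, adjusted p = 0.0703). Peg10, an imprinted gene of retrotransposon origin, was at 17.5 and 20.5 FPKM on gelatin and 70.4 and 104 on LN511 in Std, and at 1.29 to 6.98 FPKM in 2i (interaction -3.19, SE 0.59, adjusted p = 0.126). Id1, a target of BMP signalling, was at 33.9 and 29.6 FPKM on gelatin and 54.4 and 42.8 on LN511 in Std, and at 12.4 and 12.6 on gelatin and 4.35 and 6.10 on LN511 in 2i (interaction -1.72, adjusted p = 0.0902). Ckb, the brain creatine kinase, rose on LN511 in Std from 28.5 and 31.4 to 92.7 and 90.5 FPKM. In 2i it was at 617 and 583 on gelatin and 723 and 883 on LN511. The coating estimates were 1.58 in Std and 0.41 in 2i (limma interaction -1.17, adjusted p = 0.054). On the linear FPKM scale the difference of differences was 141, of the opposite sign.

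On the positive side, Zic2, a zinc finger factor of the formative state, was at 26.0 and 26.3 FPKM on gelatin and 8.95 and 6.42 on LN511 in Std, and at 11.1 to 15.2 FPKM in 2i (interaction 1.79, adjusted p = 0.1). Tex19.1, a germline gene that restrains retrotransposons, was at 33.7 and 33.7 FPKM on gelatin and 18.8 and 24.7 on LN511 in Std, and at 38.5 and 30.4 on gelatin and 54.3 and 59.3 on LN511 in 2i (interaction 1.33, adjusted p = 0.113). Phgdh, the first enzyme of serine synthesis, was at 187 and 174 FPKM on gelatin and 133 and 135 on LN511 in Std, and at 86.7 and 90.9 on gelatin and 117 and 132 on LN511 in 2i (interaction 0.91, adjusted p = 0.0598).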
